A study of Mus musculus with 288 samples.

Results

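The genes described here are the mouse conjugation enzymes of 3 families, the UDP-glucuronosyltransferases (UGT), the glutathione S-transferases (GST) and the sulfotransferases (SULT). They were chosen by symbol, as genes named Ugt, Gst or Sult with a class letter and a number, that have a probe set carrying a single gene symbol, and where a gene had several such probe sets the one with the highest mean was used. This gave 45 of the 19938 genes measured, with 10 UGTs, 19 GSTs and 16 SULTs. RNA was hybridised to 288 Affymetrix arrays, 24 for each of 12 tissues of C57/BL6 mice: liver, kidney, adrenal gland, lung, heart, aorta, skeletal muscle, brown and white adipose, brainstem, cerebellum and hypothalamus. The labels give 1 strain, no sex or age and no treatment, and the mice were kept for 1 week in 12 h of light and 12 h of dark and then moved to constant darkness. In every tissue the first array is of circadian time (CT) 18 and the last of CT64, at steps of 2 h, and each holds RNA pooled from 3 mice, so that no time point is replicated and the p-values below measure how far the pools scatter about a wave. The level of a probe set is the deposited intensity on a linear scale, or its log2 where stated.

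Conjugation is the step of detoxification that joins a polar group to a drug, hormone, bile pigment or reactive product of metabolism so that it can leave the cell in bile or urine. UGTs transfer a sugar, most often glucuronic acid from UDP-glucuronic acid, in the endoplasmic reticulum, GSTs couple electrophiles to the thiol of glutathione, and SULTs transfer sulfate from phosphoadenosine phosphosulfate. Liver and kidney are the best known sites of all 3 reactions, and the transcription factors that drive these genes include nuclear receptors, NRF2, and the PAR bZIP proteins such as DBP that the circadian clock controls.

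Promoter windows of 300 bases, from 250 before to 50 after the start of transcription, were found in RefSeq's table of build GRCm38.p6 for 41 of the 45 genes, as 52 windows. The windows below are shown because they hold a short motif of a factor that acts on this pathway, searched on both strands and set in capitals. The core of the antioxidant response element, TGACNNNGC, which NRF2 binds, was in 3 of the 52 windows (5.77%) and in 12.4% of all 32851 windows of the table. Those 3 belong to Gsta3, Gstm7 and Gstm5, whose waves are described below. The D-box TTATGTAA, a site of the PAR bZIP proteins, was in 1 window, that of Ugt2b1, and in 0.938% of all windows, and the D-box TTACGTAA, which does not overlap it, was in 0 member windows and 0.119% of all.
Gsta3, chr1:21240335-21240634, + strand: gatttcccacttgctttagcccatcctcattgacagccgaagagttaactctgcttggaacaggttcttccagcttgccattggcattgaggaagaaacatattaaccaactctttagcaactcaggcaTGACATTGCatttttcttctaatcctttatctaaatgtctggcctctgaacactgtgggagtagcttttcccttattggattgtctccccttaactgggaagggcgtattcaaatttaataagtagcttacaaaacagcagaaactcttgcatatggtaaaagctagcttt
Gstm7, chr3:107931565-107931864, - strand: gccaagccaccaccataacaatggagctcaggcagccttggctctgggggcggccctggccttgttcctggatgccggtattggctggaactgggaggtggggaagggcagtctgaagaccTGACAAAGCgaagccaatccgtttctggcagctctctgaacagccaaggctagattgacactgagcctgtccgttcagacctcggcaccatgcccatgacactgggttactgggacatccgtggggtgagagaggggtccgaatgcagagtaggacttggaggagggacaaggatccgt
Gstm5, chr3:107895604-107895903, + strand: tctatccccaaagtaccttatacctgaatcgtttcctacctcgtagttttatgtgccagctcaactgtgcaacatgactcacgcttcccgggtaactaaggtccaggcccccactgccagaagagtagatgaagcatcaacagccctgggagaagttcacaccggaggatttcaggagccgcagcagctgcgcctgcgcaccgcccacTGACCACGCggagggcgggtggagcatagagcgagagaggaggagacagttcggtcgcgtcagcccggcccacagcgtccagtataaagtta
Ugt2b1, chr5:86926454-86926753, - strand, with the D-box read from the other strand: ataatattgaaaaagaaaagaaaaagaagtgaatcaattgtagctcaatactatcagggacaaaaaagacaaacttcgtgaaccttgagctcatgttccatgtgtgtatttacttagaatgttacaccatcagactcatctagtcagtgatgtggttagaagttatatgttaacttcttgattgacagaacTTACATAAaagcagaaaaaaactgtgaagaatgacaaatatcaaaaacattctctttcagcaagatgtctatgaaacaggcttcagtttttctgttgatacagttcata
The E-box CACGTG, which the clock proteins CLOCK and BMAL1 bind, was in 0 of the 52 member windows and in 7.15% of all windows. The ROR element core TAGGTCA was in 2 member windows, of Sult1b1 and Sult2a8, and in 2.61% of all. Every member named here as holding or lacking a motif was judged on these letters in this window alone. No window was printed for Gsta4, Gstt2, Sult4a1 or Ugt3a2.

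The tissue labels were checked against defining markers. Each tissue's own list was bright in it, with a median log2 level of 13.4 for the 12 hepatocyte genes in liver, 12.3 for the 8 kidney tubule genes in kidney and 12.6 for the 6 adrenal cortex genes in adrenal gland. Markers of neighbouring tissue were present in some dissections. The hepatocyte list ranged from 6.21 to 12.1 across the adrenal arrays, from 6.39 to 10.02 across the aorta arrays, from 6.74 to 9.96 across the white adipose arrays and from 5.97 to 10.3 across the heart arrays, where the array at CT26 was the highest. The skeletal muscle list ranged from 6.63 to 11.7 across the brown adipose arrays. In liver the array at CT34 stood apart, with a median correlation with the other liver arrays of 0.979, where the middle array had 0.996. In such pieces of tissue, fewer cells of a type and less RNA per cell cannot be told apart.

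The UGT members, all of the Ugt2 and Ugt3 subfamilies, were enzymes of liver and kidney on these arrays. The Ugt1a cluster is read by a probe set with several symbols and stands outside them. Its mean log2 level was 11.9 in liver, 9.09 in kidney and 8.92 in white adipose. Of 10 UGTs, 6 had their highest level in liver and 4 in kidney, and these tissues stayed the highest for all 10 after quantile normalization of all arrays. Ugt2b1, of the subfamily that glucuronidates steroids, bile acids and drugs, had intensities in liver with a lowest value of 8434, a median of 8889 and a highest of 9555. The median over the 24 adrenal arrays, next in order, was 172, with a lowest value of 29.8 and a highest of 2633. The 2 ranges did not overlap, and the wide adrenal range lies beside the range of hepatocyte markers given above, whose part in it was not tested. Ugt2b36 read 7783, 8955 and 9691 in liver (lowest, median, highest) and a median of 154 in adrenal gland, and Ugt2a3 read 6745, 7196 and 7695 in liver and a median of 86.0 in adrenal gland. Both were apart from every other tissue.

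Some UGTs favoured the kidney. Ugt2b37 had intensities of 2488, 2718 and 3185 in kidney (lowest, median, highest), against 253, 315 and 379 in liver, a difference of 8.78-fold between the means with no overlap. Ugt2b38 had 4365, 4989 and 5423 in kidney, against 2175, 2490 and 2998 in liver, or 2.02-fold. The members of the Ugt3a subfamily, which in humans use sugars other than glucuronic acid, were high in kidney and liver, with a median of 106.9 or less in the adrenal gland, next in order. Ugt3a1 had 4980, 5302 and 5638 in kidney, against 3585, 4332 and 4764 in liver, while for Ugt3a2 the ranges of 7570 to 8709 in kidney and 7121 to 8128 in liver overlapped. Since each tissue appears to have been normalized apart, these levels across tissues are a description.

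The GSTs were broad. Of 19 GSTs, 9 lay above the median gene of all 12 tissues, which held for 0 UGTs and 0 SULTs, and 14 had their highest level in liver. That count was 11 after quantile normalization, which moved the median gene by -0.26 log2 in liver and by 0.10 in white adipose, and Gstm7, Gsto1 and Gstz1 then had their highest level elsewhere. Gstp1, the pi class enzyme, had intensities of 10378, 12041 and 13312 in liver (lowest, median, highest), and in hypothalamus, next in order, 1456, 2081 and 2687. Gsta3, an alpha class enzyme known in mouse for conjugating aflatoxin epoxide, had 8466, 9097 and 9714 in liver and 1348, 1844 and 2704 in white adipose. Gstm5, of the mu class, was an exception, with 1456, 1682 and 1899 in hypothalamus and 1266, 1359 and 1464 in brainstem, ranges that overlap, and a median of 291 in liver. Gstt2, of the theta class, had its highest level in kidney.

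Individual SULTs marked individual tissues. Sult1e1, the estrogen sulfotransferase, had intensities of 700, 905 and 1191 in white adipose (lowest, median, highest) and 24.1, 28.3 and 56.9 in brown adipose, the tissue next in order, 30.3-fold lower in the mean. Sult4a1, a brain sulfotransferase with no settled substrate, had medians of 1337 in hypothalamus, 1104 in brainstem and 849 in cerebellum, and 60.7 in skeletal muscle, which came next. The ranges of hypothalamus and brainstem overlapped. Sult2a8, of the subfamily that sulfates hydroxysteroids and bile acids, had 5205, 5889 and 6576 in liver and a median of 57.7 in adrenal gland. Sult1c2 had 1859, 2072 and 2289 in kidney, against 124, 190 and 330 in liver. Sult1d1, which sulfates catecholamines in mouse, had 5697, 6240 and 6738 in kidney, against 3089, 3783 and 4845 in liver. In 8 of the 16 SULTs no tissue reached its median gene, so their order of tissues is not given.

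**Figure D1:**
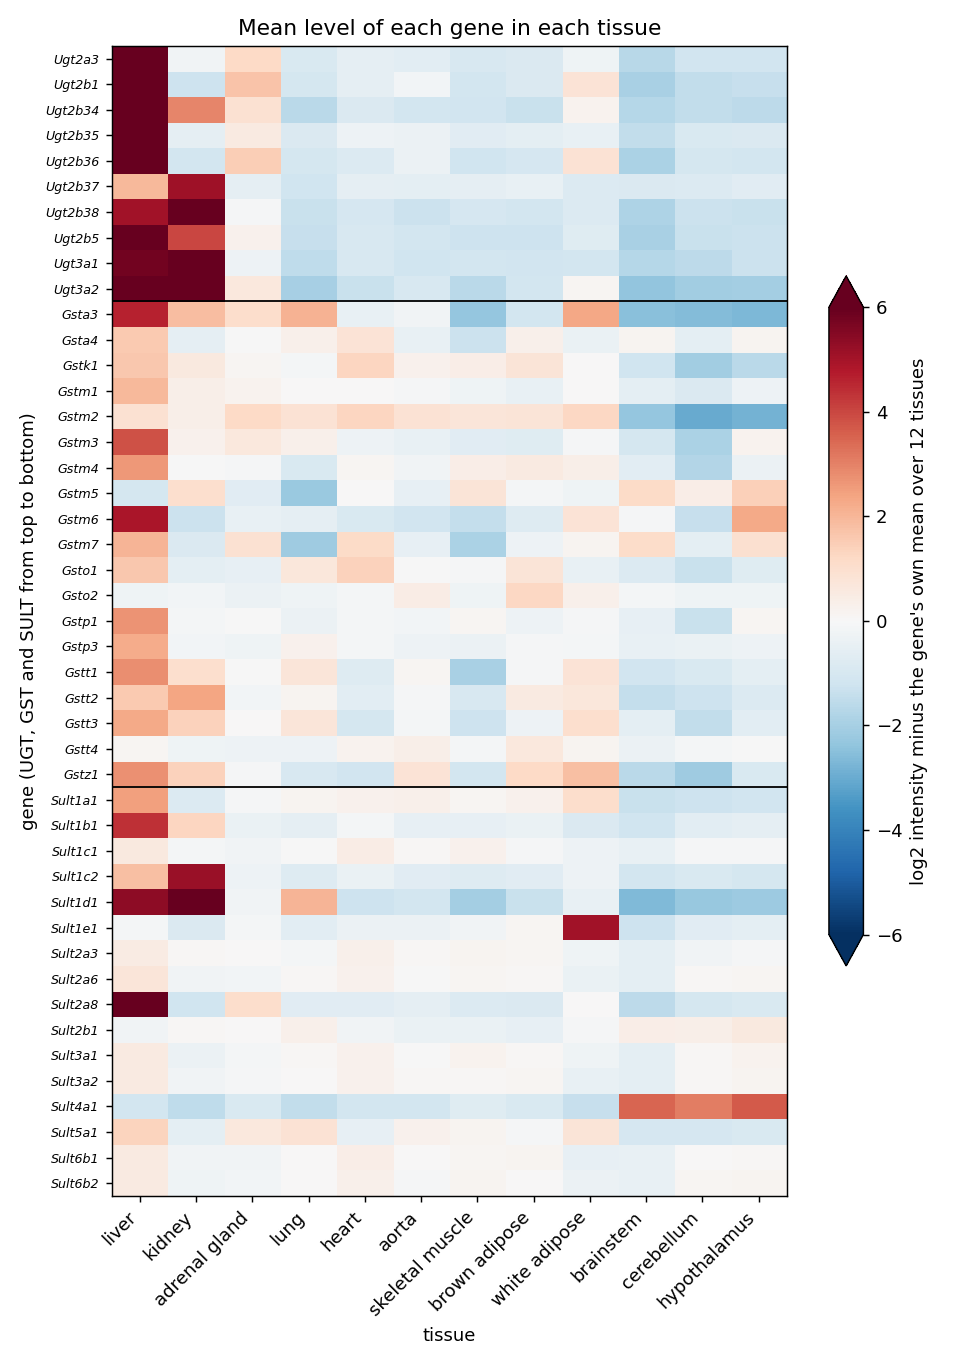
Mean log2 intensity of each of the 45 genes (rows, by family) in each of 12 tissues (columns), minus the gene's own mean over the tissues, with 24 arrays per tissue and colours that saturate at the ends of the scale. The UGTs are high in liver and kidney, the GSTs spread over the tissues, Sult1e1 stands out in white adipose and Sult4a1 in the 3 brain tissues.

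Daily waves were asked next. A wave with a period of 24 h was fitted to the log2 intensities of the 24 arrays of each tissue, and it was called where the adjusted p of limma's moderated F test over all 19938 genes was under 0.05. The fold is the fitted peak over the fitted trough. Of the 540 pairs of a member and a tissue, 80 were called, 60 of them GSTs, 16 SULTs and 4 UGTs. They came from 28 members, and 17 members were called in no tissue. In 13 pairs the fold was above 1.5. When each day was fitted alone, the peak of the 2 days lay within 2 h in 61 of the 80 pairs and within 4 h in all 80, which share the data of the call.

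The counts differed widely between tissues. In liver 16 of 45 members were called, beside 26.8% of all genes, in lung 15 beside 20.9%, in kidney 10 beside 25.8% and in brown adipose 10 beside 16.5%. Adrenal gland had 7 members called beside 5.89% of all genes, cerebellum 6 beside 5.49%, aorta 5 beside 5.09%, and brainstem 3 beside 4.78%. Heart had 3 beside 8.64%, white adipose 3 beside 4.85%, and skeletal muscle 2 beside 5.12%. Hypothalamus had 0 called beside 1.8%, with 9 members at an unadjusted p under 0.05, and there limma on ranks called 0 and limma with array weights 4. Many dim genes lower the share over all genes: among genes above the tissue median, 16 of 33 members were called in liver beside 46.3% of such genes, 9 of 24 in kidney beside 41.9%, and 12 of 17 in lung beside 34.3%. In liver and kidney the members' share was close to that of other genes above the median.

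In liver 11 of 19 GSTs, 3 of 16 SULTs and 2 of 10 UGTs were called, beside 26.8% of all genes, and in lung 12 GSTs, 3 SULTs and 0 UGTs, beside 20.9%. A difference between the families was not tested. The median fold over all 10 UGTs in liver was 1.08, over the 19 GSTs 1.15 and over the 16 SULTs 1.05, and over all genes it was 1.09. The called UGTs of liver were Ugt3a1, 1.13-fold (95% interval 1.06 to 1.21) with a peak at CT1.36, and Ugt2b34, 1.11-fold (1.07 to 1.16) with a peak at CT16.4 (limma adjusted p 0.0114 and 4.87e-04). The call of Ugt3a1 was lost in 1 alternative (adjusted p 0.0616). Ugt2b1, the gene with the D-box window, had a fitted fold of 1.03 in liver (upper bound of the 95% interval 1.06, adjusted p 0.373). In kidney Ugt2b34 was the 1 UGT called, at 1.19-fold with a peak at CT23.5 (adjusted p 0.0134) and intensities of 472, 574 and 683 (lowest, median, highest). The limma test of a difference between its liver and kidney waves did not pass.

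**Figure D2:**
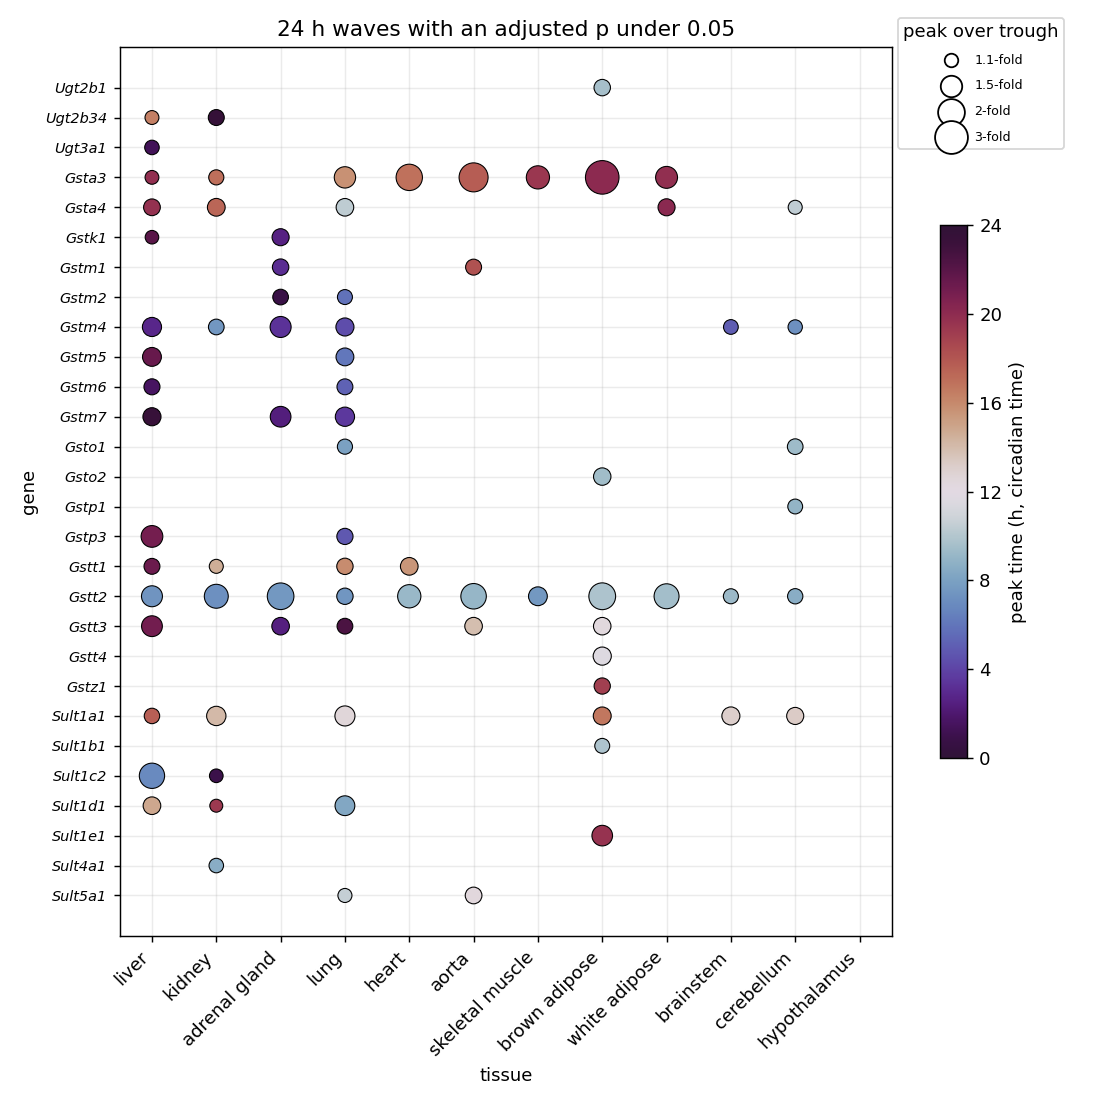
Every called 24 h wave, by gene (rows) and tissue (columns), with circle area rising with the fold of peak over trough and colour giving the peak in hours of circadian time. The row of Gstt2 is filled in 11 tissues with peaks close together, and the rows of Gsta4, Gstt3 and the Gstm genes change colour between tissues.

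Gstt2, a theta class transferase, was the most widely rhythmic member, called in 11 of 12 tissues, where 15 genes in all were called in 11 tissues and 14 in 12. Its fold ran between 1.15 in brainstem and 2.00 in brown adipose. In kidney its intensities had a lowest value of 709, a median of 884 and a highest of 1517, and the wave was 1.70-fold (95% interval 1.501 to 1.93, adjusted p 9.09e-07) with a peak at CT7.16 ± 0.44 (SE). In adrenal gland they ran 120, 163 and 287, and the wave was 1.98-fold (1.74 to 2.25, adjusted p 5.25e-07) with a peak at CT7.57 ± 0.35. The adrenal wave of Gstt2 was 1.91-fold with the hepatocyte markers as covariate.

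The peaks of Gstt2 fell in a narrow part of the day. They lay between CT7.16 in kidney and CT9.81 in brown adipose, with a circular mean of CT8.41. Set against clock genes fitted in the same tissue, Gstt2 peaked 0.61 to 2.42 h before Dbp in all 11 tissues, and between 0.59 h before and 3.03 h after Nr1d1, later than it in 10 of 11. These orders are of fitted peaks and were not tested. In lung, liver and kidney the peak of Gstt2 was only 0.03, 0.38 and 0.44 h after that of Nr1d1. In liver its intensities were 370, 539 and 968 (lowest, median, highest) and its wave 1.46-fold with a peak at CT7.37 ± 0.92. In brown adipose they were 165, 299 and 491. Its calls in brainstem, cerebellum and skeletal muscle were lost in 1 to 3 of the alternatives (adjusted p 0.0512 to 0.131). Its mean log2 there was 6.14, 6.28 and 6.58, under the median genes of 7.09, 7.06 and 6.87. In hypothalamus Gstt2 was not called.

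**Figure D3:**
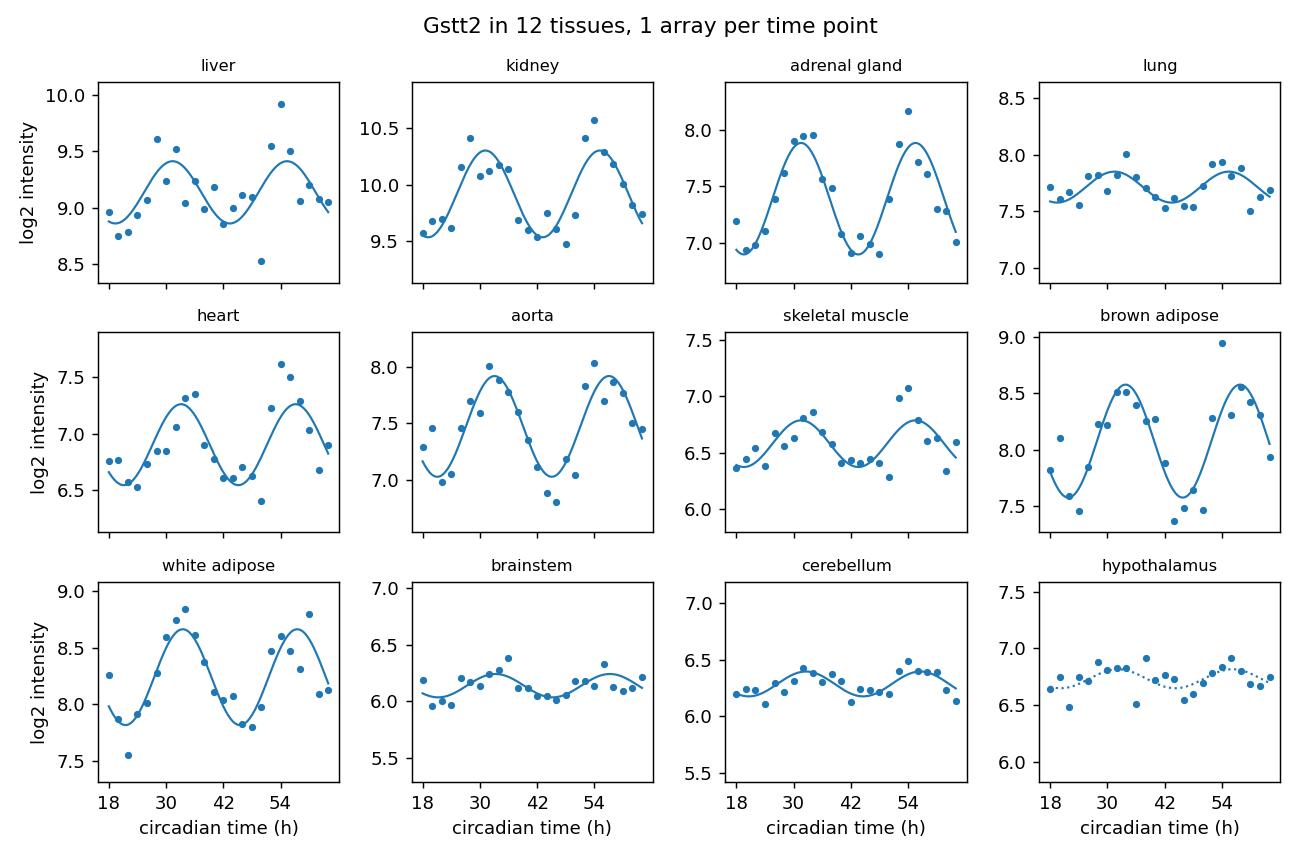
Log2 intensity of Gstt2 (y axis, the same span in each panel) against circadian time in hours (x axis) in each tissue, with 1 point per array and the fitted 24 h wave as a line, dotted where not called. The crests of the 11 called tissues lie between CT7.16 and CT9.81, and the brown adipose, adrenal and aorta waves are the tallest.

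Gsta3 was called in 8 tissues and gave the largest wave of any called member. In brown adipose its intensities had a lowest value of 105, a median of 148 and a highest of 476, and the wave was 3.16-fold (95% interval 2.42 to 4.13, adjusted p 2.47e-06) with a peak at CT20.1 ± 0.43. It remained 2.61-fold with skeletal muscle markers as covariate. A wave of 12 h also passed there for Gsta3 (1.56-fold, adjusted p 0.0202) and for Sult1e1 (1.44-fold, adjusted p 0.00298), beside 4.83% of all genes.

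The wave of Gsta3 was shallow where its level was highest. In liver its intensities of 8466 to 9714 gave 1.11-fold (1.08 to 1.14, adjusted p 1.38e-06, peak at CT19.8). In lung they ran 1256, 1590 and 1974 (lowest, median, highest) and gave 1.49-fold (1.44 to 1.54) with a peak at CT15.7 ± 0.16 and an adjusted p of 2.27e-15. In aorta they ran 188, 320 and 904, with a wave of 2.30-fold peaking at CT17.7. The array with 904 was that at CT18, the one where the hepatocyte list stood at 10.02 in aorta, and the wave was 2.29-fold with that list as covariate. The brown adipocyte list had a median log2 level of 10.9 in aorta and 11.3 in brown adipose. Its part in the aorta wave was not tested.

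In heart the values of Gsta3 ran 169, 251 and 845, with the highest at CT26, the array that carried hepatocyte markers. Without the heart arrays that stood apart its wave was 2.44-fold with an adjusted p of 8.90e-10, and with them 1.95-fold with 0.0304. In skeletal muscle the wave was 1.64-fold, peaking at CT19.4, and 1.36-fold without the 9 arrays that stood apart. The mean log2 of Gsta3 there was 6.22, under the median gene (6.87). In kidney its call was lost with adipocyte markers as covariate (limma adjusted p 0.254). In white adipose the wave of Gsta3 was 1.53-fold, peaking at CT19.8. In adrenal gland, where its intensities ran 315, 685 and 3308, it was not called.

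**Figure D4:**
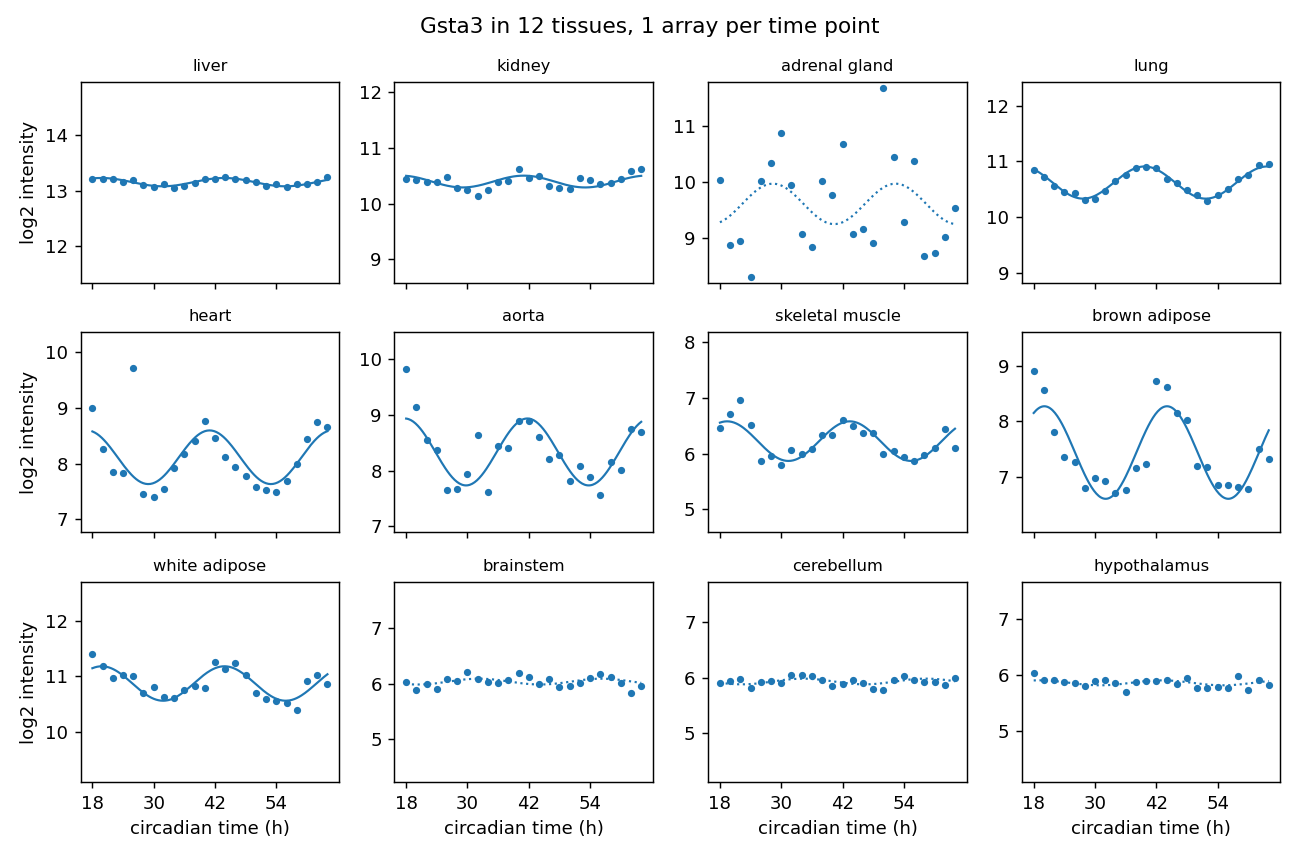
Log2 intensity of Gsta3 (y axis, the same span in each panel) against circadian time in hours (x axis) in each tissue, with 1 point per array and the fitted 24 h wave as a line, dotted where not called. The wave is tall in brown adipose, aorta and heart, shallow in liver and kidney, and the heart array at CT26 lies far above its neighbours.

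Liver and lung held the most called members. In lung all 5 called Gstm genes, mu class enzymes that lie in 1 cluster on chromosome 3, peaked within 2.48 h of each other, at CT3.57 (Gstm7), CT4.34 (Gstm4), CT5.22 (Gstm6), CT5.86 (Gstm2) and CT6.06 (Gstm5). In lung Gstm5 (mean log2 7.03) and Gstm6 (5.69) lay under the median gene (7.13). In liver 4 of the 5 were called, with peaks at CT21.5 for Gstm5, CT23.4 for Gstm7, CT1.60 for Gstm6 and CT2.80 for Gstm4, a span of 5.30 h. The liver call of Gstm6 was lost in 3 alternatives. In adrenal gland the 4 called Gstm genes peaked within 2.55 h, between CT0.78 and CT3.33. The arrays that stood apart there, at CT28, CT50 and CT52, were of circadian hours 4, 2 and 4. Without them the calls of Gstm1 and Gstm4 were lost (limma adjusted p 0.131 and 0.0703). The call of Gstm2 was lost in 3 other alternatives. The Gstm probe sets may share RNA of near-identical neighbours, whose part was not tested.

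Of 12 members called in both liver and lung, 5 had waves that differed by the test, and 3 of these peaked at least 6 h apart. Gsta4, which clears the lipid aldehyde hydroxynonenal, had intensities of 2197, 2676 and 3213 in liver and 925, 1147 and 1303 in lung. Its peak was at CT19.7 ± 0.77 in liver and at CT10.3 ± 0.38 in lung, 9.39 h apart (SE 0.86), and the waves differed (limma adjusted p 1.32e-06). It peaked at CT10.4 in cerebellum too, a call lost in 3 alternatives, and at CT17.3 in kidney and CT20.2 in white adipose. Liver against cerebellum differed with an adjusted p of 0.00164 and kidney against lung with 5.94e-05, the peaks being 7.01 h apart. For kidney against cerebellum it was 0.0116.

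Gstm5 had 225, 291 and 375 in liver and 108, 131 and 167 in lung, with peaks at CT21.5 in liver and CT6.06 in lung (adjusted p of the difference 9.43e-04). Gstp3, a pi class gene, had 128, 248 and 367 in liver and 49.9, 62.4 and 73.6 in lung, with a wave of 1.52-fold at CT21.0 in liver and of 1.202-fold at CT4.79 in lung (adjusted p of the difference 3.51e-07). In lung Gstm5 (mean log2 7.03) and Gstp3 (5.95) lay under the median gene (7.13). The lowest liver value of Gstp3 was at CT34. So it was for 10 of the 16 members called in liver, and all 16 calls held without that array, Gstp3 at 1.40-fold. The liver call of Gstp3 was lost with adipocyte markers as covariate (adjusted p 0.0760). In 6 of 45 members the waves of liver and lung differed, beside 20.7% of all genes, and kidney against lung gave 2 beside 5.59%. With the time point as a block these counts were 10 and 10. No share of all genes was taken under that test, so the shares above do not apply to them.

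**Figure D5:**
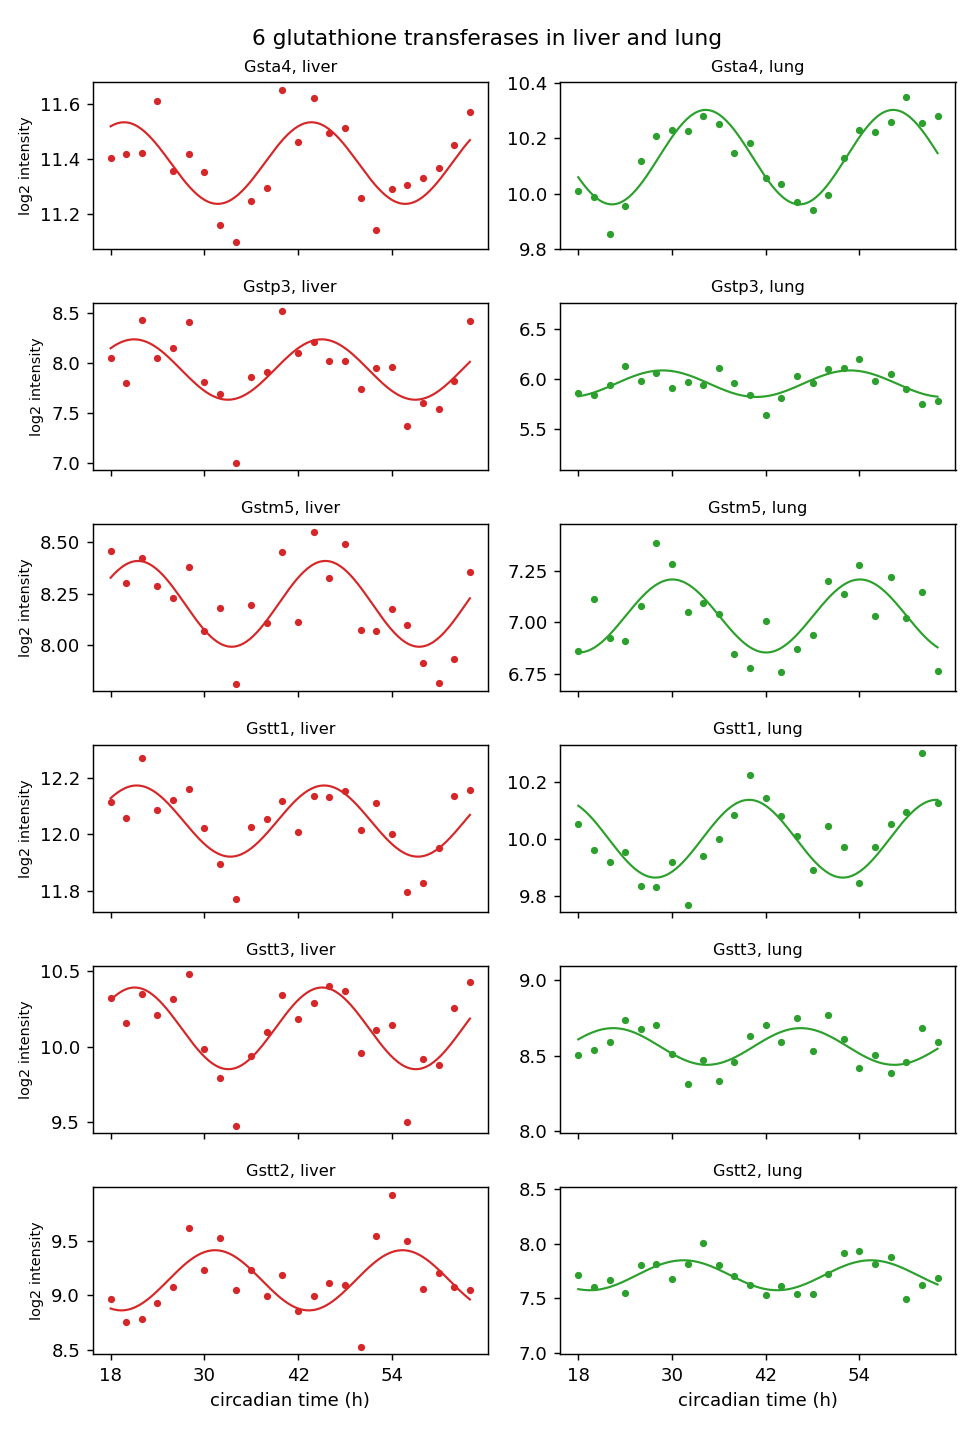
Log2 intensity (y axis, the same span for both tissues of a gene) against circadian time in hours (x axis) of 6 GSTs in liver (left) and lung (right), with 1 point per array and the fitted 24 h wave. Gsta4, Gstp3 and Gstm5 crest near CT20 to CT22 in liver and CT5 to CT10 in lung, whereas Gstt2 crests near CT7 in both.

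The theta class genes Gstt1, Gstt2 and Gstt3 lie in 1 cluster on chromosome 10, with Gstt4 between Gstt1 and Gstt2. In liver Gstt1 peaked at CT21.3 and Gstt3 at CT21.1, while Gstt2 peaked at CT7.37, 10.04 h (SE 1.18) and 10.3 h (SE 1.18) from them. In lung the 3 peaks stood at CT15.9 for Gstt1, CT22.5 for Gstt3 and CT7.47 for Gstt2. Gstt1, the enzyme that conjugates small halogenated compounds, had intensities of 3497, 4309 and 4933 in liver and 872, 1014 and 1263 in lung. Its liver peak was 5.46 h from its lung peak (adjusted p of the difference 0.0474) and 5.81 h from that in heart, at CT15.5 (adjusted p 0.00968).

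Gstt3 also peaked at different times in different tissues. It had 713, 1155 and 1432 in liver and a wave of 1.45-fold. In brown adipose it had 150, 180 and 230 and peaked at CT12.3, 8.74 h from liver (adjusted p 1.70e-08), and in aorta it had 177, 208 and 280 and peaked at CT13.9, 7.17 h from liver (9.13e-07). Its call in brown adipose was lost with skeletal muscle markers as covariate (adjusted p 0.191), and that in aorta was lost in 3 alternatives. In adrenal gland it peaked at CT2.46. The waves of liver and brown adipose differed for 12 of 45 members, beside 24.6% of all genes, those of liver and aorta for 10 beside 20.7%, and those of liver and cerebellum for 7 beside 16.5%. Kidney against cerebellum gave 2 beside 2.46%. With the time point as a block, liver against cerebellum gave 12 and kidney against cerebellum 5, with no share of all genes taken.

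Liver and kidney were compared as the main organs of conjugation. Their waves differed for 5 of 45 members, beside 15.6% of all genes. With the time point as a block they differed for 11, with no share of all genes taken. Sult1c2 had a wave of 1.83-fold in liver (95% interval 1.502 to 2.24, peak at CT6.90 ± 0.61), against 1.104-fold in kidney (1.05 to 1.16, peak at CT0.91 ± 0.86), where its level was higher, and the difference had an adjusted p of 1.99e-04. Gstm4 had 2883, 3581 and 4363 in liver, against 499, 567 and 663 in kidney (lowest, median, highest). It peaked at CT2.80 in liver and CT7.49 in kidney (adjusted p 0.00149). Of the other kidney calls, Sult1a1, which sulfates phenols, had 140, 181 and 240 and a wave of 1.36-fold peaking at CT14.1, and Gsta4 a wave of 1.28-fold, whose call was lost with adipocyte markers as covariate (adjusted p 0.0585).

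Sult1a1 was called in 6 tissues, and its peaks lay between CT12.6 in lung and CT17.6 in liver. The fold was 1.41 in lung, 1.29 in brainstem, 1.28 in brown adipose, 1.24 in cerebellum and 1.17 in liver. The waves of liver and lung differed for it (adjusted p 0.00712). Sult1d1, the catecholamine sulfotransferase, peaked at CT14.8 in liver (1.27-fold), CT19.3 in kidney (1.08-fold) and CT8.31 in lung (1.39-fold). Its waves in these tissues did not differ by the test in any pair of them.

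In adrenal gland all 7 called members were GSTs, and all peaked between CT0.78 and CT7.57. Gstm4 had 426, 548 and 914 and a wave of 1.47-fold, and Gstm7 had 877, 1207 and 1591 and a wave of 1.45-fold (adjusted p 7.57e-05) with a peak at CT2.36. Gstm7 held 1.43-fold with hepatocyte markers as covariate, whereas the calls of Gstm1, Gstm2, Gstm4 and Gstt3 were lost in 2 to 5 alternatives. The UGTs had a median fitted fold of 3.63 there, yet limma called 0 of 10, with 5 at an unadjusted p under 0.05, and the hepatocyte list ranged over the same arrays as given above. Liver against adrenal gland gave 24 members beside 22.6% of all genes in the fit over all tissues. With the time point as a block it gave 8, with no share of all genes taken.

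Brown adipose had 10 called members, among them Gstt4 at 1.30-fold and Sult1e1 at 1.44-fold, both dim. With skeletal muscle markers as covariate 4 were called, Gsta3, Gstt2, Sult1a1 and the dim Ugt2b1 (25.8 to 35.5), and Gsto2, Gstt3, Gstt4, Gstz1, Sult1b1 and Sult1e1 were not. In white adipose Gsta4 was called beside Gstt2 and Gsta3, at 1.24-fold, and lost with hepatocyte markers as covariate (adjusted p 0.156). In aorta Sult5a1 was 1.22-fold, in cerebellum Gsto1, which reduces dehydroascorbate, was 1.18-fold and Gstp1 1.15-fold, and in brainstem Gstm4 was 1.14-fold. Each of these 4 calls was lost in 1 to 4 alternatives.

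Over all 12 tissues together the wave differed for 31 of 45 members, beside 49.6% of all genes. Of these members, Gstm3, Ugt2a3, Ugt2b35, Ugt2b36, Ugt2b5, Ugt3a2 and Sult2a8 had no called wave in any tissue. The fit holds 1 spread for all tissues, while adrenal UGTs had a median fitted fold of 3.63 with 0 of 10 called. The part of such scatter in the count was not tested. The smallest adjusted p were 4.19e-15 for Gstt2, 1.17e-13 for Gsta3, 2.89e-11 for Gstt3 and 1.40e-10 for Gsta4. Waves of 12 h passed in skeletal muscle for Ugt2b37, Gsto1 and Ugt3a1, beside 6.99% of all genes. Ugt2b37 (mean log2 5.80) and Ugt3a1 (5.16) lay under the median gene of that tissue (6.87). A straight trend over the 2 days passed in kidney for Gstp1 (0.21 log2 per 24 h) and Ugt2b5 (-0.11), beside 2.97% of all genes, and in skeletal muscle for Sult4a1 (-0.25), beside 1.74%. Sult4a1 had a mean log2 of 5.92 in skeletal muscle, also under its median gene.

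The genes around the enzymes were read from lists, beside shares over all genes of 26.8% called in liver, 25.8% in kidney and 20.9% in lung. Of 16 genes of cofactor supply, 10 were called in liver, 7 in kidney and 7 in lung. In liver they included Papss1, which makes the sulfate donor (1.49-fold, CT19.8), Gss, the glutathione synthetase (1.49-fold, CT10.4), and Cbs and Cth of cysteine synthesis from methionine (1.43-fold at CT2.00 and 1.31-fold at CT0.32). Ugp2 and Ugdh, which make UDP-glucuronic acid, were 1.28-fold at CT8.91 and 1.14-fold at CT7.89, while 8 of 10 UGTs were not called in liver. Of 20 regulators, 16 were called in liver, 9 in kidney and 13 in lung, with Dbp at 13.7-fold and Nfil3 at 4.09-fold in liver, peaking at CT9.48 and CT21.1. The regulator list holds the clock-controlled PAR bZIP genes Dbp, Tef and Hlf, and the lists were chosen with earlier results of these data known. The count of regulators is thus no test of them as a set. Shares among genes above the median were not taken for these lists. Of 9 exporters, 4 were called in liver, 3 in kidney and 3 in lung. Those of liver included Abcc2, the canalicular pump for conjugates (1.32-fold, CT9.15). Of 18 other conjugation enzymes, 9 were called in liver, 6 in kidney and 5 in lung. Among them Nat8, which acetylates the cysteine conjugates that GSTs give rise to, was 1.75-fold at CT20.0 in liver, against 1.52-fold at CT13.5 in kidney. Of 14 NRF2 targets, 4 were called in liver, 4 in kidney and 6 in lung, so that liver and kidney were near the share of all genes, with Osgin1 at 2.21-fold in liver and 1.60-fold in kidney. A list of 13 genes of drug oxidation, the step before conjugation, held cytochromes and Alas1, which makes their haem. Of these 13, 4 were called in liver, 4 in kidney and 5 in lung, again near the share of all genes in liver and kidney. In liver Cyp2b10 was 2.62-fold and Alas1 2.05-fold.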

How the data were processed

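The authors deposited 1 table of 288 arrays, in linear intensity per probe set. The tools were Affymetrix Expression Console and GCRMA, per the submitters' processing notes, with no version or order of steps; a genome build is not given in the sources used here. Array medians lay between 95.2 and 106.6 while spreads differed between tissues, so that the tissues appear to have been normalized apart, and levels across tissues carry this limit. Intensities were taken to log2 with no pseudocount, since the lowest value was 6.9; a log2 table had been assumed when the tests were planned.

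Of 35556 probe sets, 21789 carried 1 gene symbol, 1621 several and 12146 none in GEO's platform annotation. A gene was read from its 1-symbol probe set with the highest mean (999 genes had more than 1), and all 45 members matched RefSeq gene identifiers. No gene was filtered for low level.

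In each tissue a 24 h cosine and sine were tested with limma 3.58.1 in R 4.3.3 (moderated F test with a trend on mean level, Benjamini-Hochberg over 19938 genes), and differences of waves between tissues with the same test in 1 fit over all tissues. Arrays were said to stand apart where a marker list lay more than 5 median absolute deviations and 1 log2 unit above the tissue's median, or where the median correlation with the tissue's other arrays was low by 5 such deviations. Promoters are RefSeq's, of build GRCm38.p6. The limma steps were tested on simulated data. The number of arrays limits the precision.

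Members called in the most tissues, members called in a tissue in order of fold, and members called in both tissues of a pair with peaks at least 6 h apart were named. The members, lists and tests were chosen with earlier results of these data known. Alternatives were ranks, a pseudocount of 16, a filter on level, no trend, a straight line as covariate, array weights, leaving out arrays, 3 marker lists as covariates, each day alone and quantile normalization.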

Additional observations from a re-analysis of the deposited data

Results flagged for a closer look

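For some members the test of the difference between tissues passed with each tissue called and peaks at least 6 h apart. These were Gsta4 for kidney against cerebellum (adjusted p 0.0116), kidney against lung (5.94e-05), liver against cerebellum (0.00164) and liver against lung (1.32e-06), Gstt3 for liver against aorta (9.13e-07) and liver against brown adipose (1.70e-08), and Gstp3 (3.51e-07) and Gstm5 (9.43e-04) for liver against lung. In lung Gstp3 and Gstm5 lay under the median gene. Between liver and kidney, Sult1c2 (1.99e-04) and Gstm4 (0.00149) were called in both tissues and differed. Of the members called in 5 tissues or more, all 6 differed over the 12 tissues: Gstt2 (adjusted p 4.19e-15), Gsta3 (1.17e-13), Gstm4 (3.72e-08), Sult1a1 (0.00240), Gsta4 (1.40e-10) and Gstt3 (2.89e-11).

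Waves also passed in probe sets that carry several symbols of these families and stand outside the 45 genes. The 4 probe sets shared by Gsta1 and Gsta2 were called in lung (adjusted p 3.00e-05, 5.07e-05, 7.36e-05 and 9.61e-05) at 1.21- to 1.35-fold with peaks between CT13.5 and CT14.2. In liver the same 4 had fitted folds of 1.23 to 1.26 and were not called (adjusted p 0.0603 to 0.0955). The probe set of the Ugt1a cluster, whose genes share their last exons, was called in lung (1.14-fold, adjusted p 0.00382), liver (1.08-fold, 0.0197), brown adipose (1.23-fold, 0.0393) and white adipose (1.26-fold, 0.0448). The 2 probe sets of Gstp1 and Gstp2 were called in lung (adjusted p 0.0476 and 0.0229).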

How the results depend on the processing

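Of the 80 calls, 50 held under all 12 alternatives that use both days and in which they were tested, and 30 were lost in 1 or more. Of the 12, the mean of all probe sets left the values of every called member unchanged, since each has only 1 such probe set. All 80 calls held under it, which is no check of them. No peak of a called member moved by more than 6 h. Members called, by alternative, where the count moved by more than 1.5 times were as follows. With ranks there were 3 in aorta, 1 in brainstem, 2 in cerebellum and 1 in skeletal muscle. Among genes above the median there were 1 in brainstem, 6 in brown adipose and 0 in skeletal muscle. Array weights gave 20 in adrenal gland, 5 in heart and 4 in hypothalamus. Without the arrays that stood apart there were 4 in adrenal gland (CT28, CT50 and CT52 left out), 3 in aorta, 2 in hypothalamus and 1 in skeletal muscle. With skeletal muscle markers as covariate there were 4 in adrenal gland, 3 in aorta, 4 in brown adipose and 1 in hypothalamus, and with adipocyte markers 9 in aorta. The first day alone, with fewer arrays, gave 4 in adrenal gland, 1 in aorta, 0 in brainstem, 2 in brown adipose, 0 in cerebellum, 1 in heart, 3 in liver, 8 in lung, 1 in skeletal muscle and 1 in white adipose. The second day gave 1 in adrenal gland, 2 in aorta, 1 in brainstem, 2 in brown adipose, 1 in cerebellum, 4 in kidney, 9 in lung, 1 in skeletal muscle and 6 in white adipose. With the time point as a block, members whose wave differed numbered 11 for liver against kidney, 10 for liver against lung, 8 for liver against adrenal gland, 12 for liver against cerebellum, 10 for kidney against lung and 5 for kidney against cerebellum. No share of all genes was taken for these blocked counts. The causes of the moves in all these alternatives were not tested. The count over 12 tissues was 32 with a pseudocount and 33 with array weights, against 31. Dim members, among them 8 SULTs under the median of every tissue, are limited by signal over background.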
